A study of Homo sapiens with 6 samples.

Results

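The p53 response genes described here are 10 transcripts commonly read as output of the tumour suppressor p53: CDKN1A, MDM2, GDF15, PLK3, SESN1, ZMAT3, BTG2, BBC3, BAX and TP53INP1. They were found by gene name in the table of 58735 genes, and all 10 had enough counts to be tested, among 16655 genes tested. The study compared T3M4 cells, a long-established line from a human pancreatic ductal adenocarcinoma (PDAC), in 2 groups of 3 untreated libraries. One group is labelled MUC16 knockout (titles T3M4M16) and the other MUC16 expressing (titles T3M4WT, here called WT). MUC16 is a large membrane-bound mucin. The sources used here do not say if the knockout cells are a clone or a pool, or if replicates were grown separately, so p-values measure only the spread between these libraries.

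p53 is a transcription factor that is kept scarce by the ubiquitin ligase MDM2 and accumulates when DNA damage, nucleolar stress or oncogene activity blocks that degradation. It then switches on genes for cell cycle arrest, apoptosis, DNA repair and metabolic adjustment, and MDM2 itself, which closes a feedback loop. Many of these genes also answer to other inputs, such as ATF4, growth factor or steroid signals, so their transcripts are not a readout of p53 alone.

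Library totals ran from 19088927 to 28612621 counts in the knockout-labelled libraries and from 22963814 to 27647455 in the WT libraries. MUC16 went against the labels at the RNA level, with 292, 504 and 323 counts in the knockout-labelled libraries and 98, 144 and 90 in the WT libraries (log2 fold change 1.79 ± 0.17, SE), so every direction below is that of the library labels. The duct and epithelial markers KRT8, KRT18, KRT19, KRT7, EPCAM, CDH1 and SOX9 were present, and CFTR had 8 counts in all. All 7 present markers were called higher in the knockout-labelled libraries (log2 fold change from 0.24 for KRT18 to 0.98 for KRT8). The 8 duct and epithelial markers summed to 5530 to 5794 CPM (counts scaled to library size with TMM factors) in the knockout-labelled libraries and 3520 to 3597 in the WT libraries. Acinar, fibroblast, leukocyte and endothelial markers were low. The 5 fibroblast markers summed to 42.4 to 46.6 CPM in the knockout-labelled libraries and 30.6 to 34.1 in the WT libraries, nearly all of it COL1A1, while COL1A2 had 1 count in all. The 4 endothelial markers summed to 19.7 to 22.0 CPM in the knockout-labelled libraries and 13.4 to 16.6 in the WT libraries, mostly PECAM1, with KDR at 2 counts, and the 5 leukocyte markers to 3.38 to 4.50 CPM in the knockout-labelled libraries and 2.91 to 2.998 in the WT libraries. The part of these markers in the results below was not tested.

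The p53 response genes did not move as a block. Of the 10, 5 were higher in the knockout-labelled libraries (TP53INP1, BBC3, ZMAT3, GDF15 and MDM2), 2 were lower (PLK3 and BAX), and CDKN1A, BTG2 and SESN1 did not pass the test (edgeR's quasi-likelihood test, threshold 0.05 on p-values adjusted by Benjamini-Hochberg over all genes). These 7 calls of 10 stand beside a background in which 52.6% of all genes tested were called, 26.7% higher and 25.9% lower. The 7 called genes were also those whose groups did not overlap, against 59.0% of all genes. BBC3 and TP53INP1 were called at 2-fold or more, as were 8.87% of all genes, 7.52% higher and 1.36% lower. The median log2 fold change of the 10 genes was 0.20, beside 0.00 for all genes tested, and the values ran from -0.96 to 1.76. In bulk RNA, a change in every cell and a change in the share of cells that express a gene cannot be told apart. The plot of fold changes shows the spread of the 10 genes.

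**Figure D1:**
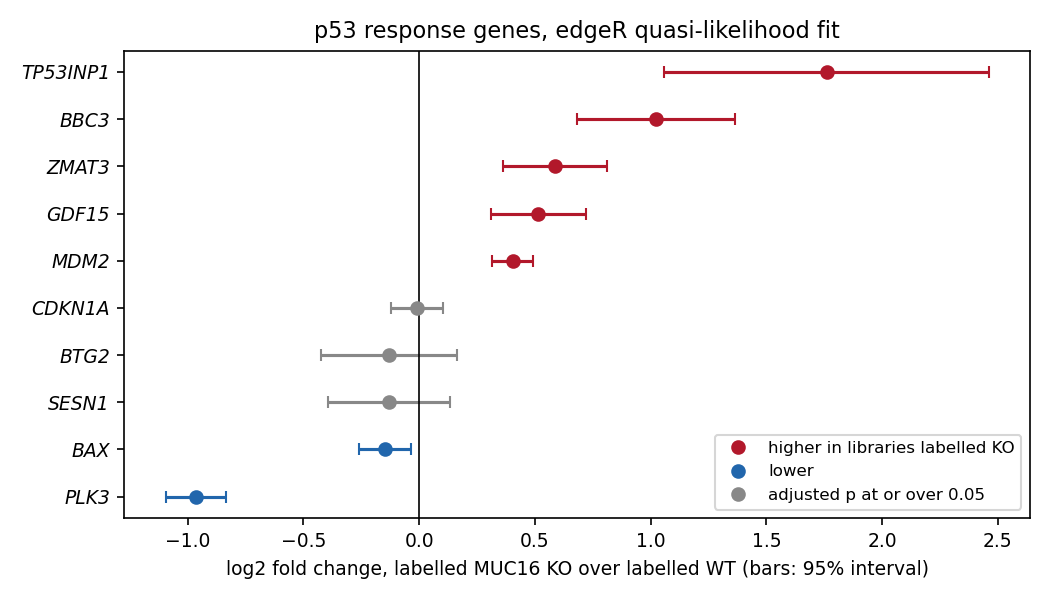
Log2 fold change of each p53 response gene (rows), knockout-labelled over WT libraries, with 95% intervals from the edgeR fit (n = 3 libraries each). The values run from -0.96 for PLK3 to 1.76 for TP53INP1, and the intervals of CDKN1A, BTG2 and SESN1 include 0.

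The promoters of the genes that moved differ from each other in their sequence. They are shown for BBC3 and GDF15, which were higher, and for PLK3 and BAX, which were lower. Each line gives the 250 bases before a single RefSeq start of the gene on GRCh38.p14, read 5′ to 3′ along the gene's strand. Capitals mark the E-box CACGTG, the GC box GGGCGG (or CCGCCC on the other strand) and the TATA box TATAAA. BBC3 lies at chr19:47232668-47232917 (minus strand), GDF15 at chr19:18385908-18386157, PLK3 at chr1:44800127-44800376 and BAX at chr19:48954625-48954874 (all plus strand).
BBC3: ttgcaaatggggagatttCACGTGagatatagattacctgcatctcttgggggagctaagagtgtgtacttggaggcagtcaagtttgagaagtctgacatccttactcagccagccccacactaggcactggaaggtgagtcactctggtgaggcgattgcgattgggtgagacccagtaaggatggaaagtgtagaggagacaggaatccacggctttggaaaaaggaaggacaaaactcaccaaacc
GDF15: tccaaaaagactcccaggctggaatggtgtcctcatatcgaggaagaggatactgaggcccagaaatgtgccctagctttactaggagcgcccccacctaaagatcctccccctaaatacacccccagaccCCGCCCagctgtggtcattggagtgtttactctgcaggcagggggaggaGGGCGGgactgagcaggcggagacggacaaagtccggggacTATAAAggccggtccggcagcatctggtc
PLK3: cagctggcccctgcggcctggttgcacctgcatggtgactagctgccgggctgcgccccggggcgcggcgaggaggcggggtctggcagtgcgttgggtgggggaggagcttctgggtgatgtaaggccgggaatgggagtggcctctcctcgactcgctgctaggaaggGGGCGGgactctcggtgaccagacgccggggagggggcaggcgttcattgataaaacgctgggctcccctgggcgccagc
BAX: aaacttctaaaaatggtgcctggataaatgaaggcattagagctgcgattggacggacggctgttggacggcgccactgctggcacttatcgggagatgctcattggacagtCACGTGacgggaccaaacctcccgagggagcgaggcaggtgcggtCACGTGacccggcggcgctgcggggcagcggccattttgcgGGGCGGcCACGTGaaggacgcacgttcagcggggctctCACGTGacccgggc

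The BAX stretch holds 4 copies of the E-box and the BBC3 stretch 1. These 2 genes lie 1722 kb apart on chromosome 19 and were called in opposite directions. A link between these motifs or positions and the direction of change was not tested. GDF15 has the TATA box and 2 GC boxes, and PLK3 has 1 GC box. The BBC3 stretch is 49.2% G and C, against 70.0% for PLK3, 62.8% for BAX, 58.4% for GDF15 and a median of 58.0% over 35116 promoters. Among the stretches not printed, those of MDM2 (74.4%) and ZMAT3 (75.2%), which were higher, exceeded all those printed. So did those of CDKN1A (76.4%), SESN1 (74.4%) and BTG2 (74.8%), which were not called. RefSeq promoter windows of 300 bases, 250 before to 50 after the start, were matched for 9 of the 10 genes, all but TP53INP1. Both strands were searched, and overlaps between motifs were not removed. The E-box was found in 2 of the 9 windows (BBC3 and BAX) and in 7.26% of all windows, the TATA box in 1 (GDF15) and 11.5%, and the GC box in 8 (all but BBC3) and 45.0%. A core of the cAMP response element, TGACG, was in 2 (BTG2 and BAX) and 24.6%. The p53 consensus decamer was in 0 of the 9 windows and in 6.63% of all windows. A pair of such decamers, with up to 1 mismatch in each and 0 to 13 bases between them, was in 0 and 0.897%. Only 1 start per gene was searched, while several transcripts are annotated for some genes (34 for MDM2, 8 for CDKN1A and 6 for BBC3). Promoters at other starts were not read, so the absence of p53 sites does not cover them. These windows do not reach distal or intronic sites.

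MDM2, the ubiquitin ligase that degrades p53, was the most abundant of the 10 in reads and was higher in the knockout-labelled libraries. Its level was 164.1, 167.2 and 170.1 CPM in the knockout-labelled libraries, against 124.5, 124.8 and 129.9 CPM in the WT libraries. All knockout-labelled libraries lay above all WT libraries. The log2 fold change of MDM2 was 0.40 ± 0.04 (SE, edgeR quasi-likelihood, adjusted p = 2.53e-08). In the authors' deposited table it is 0.39. MDM2 (ENSG00000135679, GRCh38 chromosome 12, 68808176 to 68850686, plus strand) shares 133 exon bases with the carboxypeptidase M gene on the other strand, 1.00% of its own, which was also higher (log2 fold change 0.93), and the antisense and pseudogene partners that overlap it had 0 counts.

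CDKN1A, which encodes the CDK inhibitor p21 and is the best known arrest target of p53, did not pass the test. Its level was 63.3, 64.0 and 62.2 CPM in the knockout-labelled libraries, against 61.8, 68.5 and 60.4 CPM in the WT libraries. The knockout-labelled values lie inside the range of the WT values. The log2 fold change of CDKN1A was -0.01 with a 95% interval of -0.12 to 0.10 (edgeR quasi-likelihood, adjusted p = 0.885), from 1236 to 1844 counts per library. As a within-library ratio, which no scaling factor can move, MDM2 had 2.59, 2.61 and 2.73 counts per CDKN1A count in the knockout-labelled libraries and 2.02, 1.82 and 2.15 in the WT libraries. The 2 feedback and arrest genes thus stood in a ratio 1.33 times as high in the knockout-labelled libraries. The two-sided exact permutation test gave p = 0.1, the smallest possible, and 0.1 after Benjamini-Hochberg adjustment over the 3 ratios computed. The ratio was chosen after the values of both genes were seen, so this p-value adds no independent support. CDKN1A (ENSG00000124762, chromosome 6, 36676460 to 36687339, plus strand) shares 146 exon bases, 4.79% of its own, with the divergent transcript DINOL, which had 0 counts.

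BTG2, an antiproliferative partner of the CCR4-NOT deadenylase, did not pass the test either. It had 5.07, 4.71 and 5.16 CPM in the knockout-labelled libraries, against 5.50, 6.21 and 4.57 CPM in the WT libraries. The WT libraries spread on both sides of the knockout-labelled ones. For BTG2 the log2 fold change was -0.13 (95% interval -0.43 to 0.16, edgeR quasi-likelihood, adjusted p = 0.463). With 99 to 167 counts per library, counting error alone was 7.74% to 10.1% of the value.

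PLK3, a stress-responsive polo-like kinase, had the largest fall of the 10. Its level was 22.5, 22.6 and 22.5 CPM in the knockout-labelled libraries, against 44.9, 42.6 and 44.4 CPM in the WT libraries. Every knockout-labelled value is far below every WT value. The knockout-labelled values spread by 0.143% (SD over mean), from 440, 580 and 659 counts. Counting error was 4.77% at 440 counts, and still 2.91% at 1182 counts, the highest WT library. The closeness of the knockout-labelled values is thus no measure of precision. The log2 fold change of PLK3 was -0.96 ± 0.06 (SE, edgeR quasi-likelihood, adjusted p = 1.15e-11), and 10.0% of all genes tested had a larger change in either direction. Per CDKN1A count, PLK3 had 0.356, 0.353 and 0.361 counts in the knockout-labelled libraries and 0.726, 0.622 and 0.736 in the WT libraries. PLK3 (ENSG00000173846, chromosome 1, 44800225 to 44805990, plus strand) shares 78 exon bases with TCTEX1D4, which had 50 counts over all libraries.

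**Figure D2:**
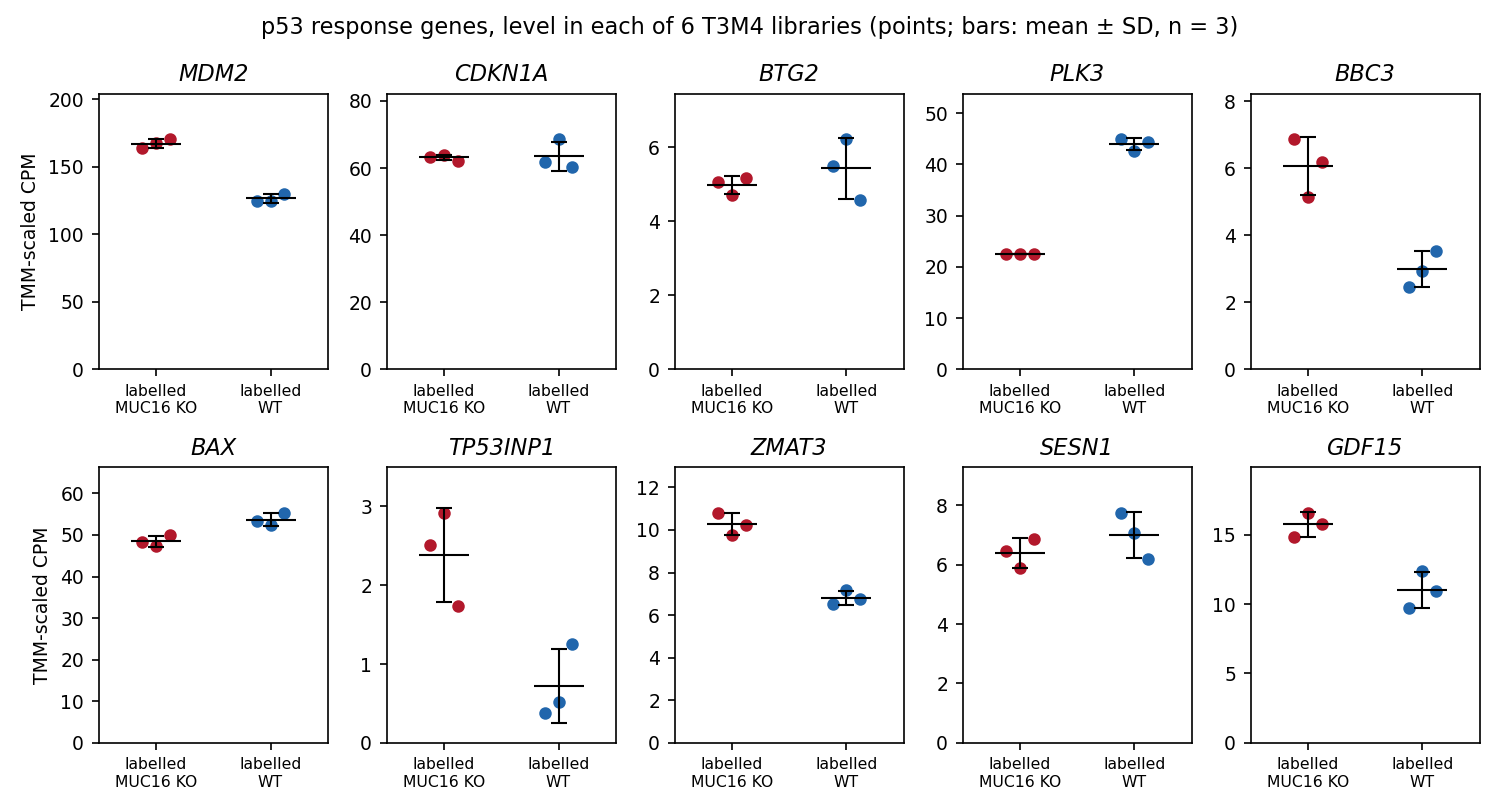
TMM-scaled CPM of each p53 response gene (one panel each, vertical axis from 0) in the 3 knockout-labelled (left) and 3 WT (right) libraries, with mean ± SD. Levels of PLK3 sit between 22.5 and 22.6 CPM in the knockout-labelled libraries and between 42.6 and 44.9 CPM in the WT libraries, and those of CDKN1A, BTG2 and SESN1 overlap.

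BBC3, which encodes PUMA, a BH3-only protein that triggers mitochondrial apoptosis, was higher in the knockout-labelled libraries at a low level. It had 6.86, 5.14 and 6.18 CPM there, against 2.47, 2.94 and 3.54 CPM in the WT libraries. The lowest knockout-labelled library exceeded the highest WT library. BBC3 thus had a log2 fold change of 1.02 ± 0.16 (SE, edgeR quasi-likelihood, adjusted p = 1.4e-05). It rests on 132 to 181 counts per library in the knockout-labelled group and 65 to 79 in the WT group. BBC3 (ENSG00000105327, chromosome 19, 47220822 to 47232766, minus strand) overlaps the microRNA genes MIR3190 and MIR3191, both at 0 counts.

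BAX, the pore-forming effector on which BH3-only proteins act, went the other way by a small amount. It had 48.3, 47.3 and 49.9 CPM in the knockout-labelled libraries, against 53.5, 52.4 and 55.3 CPM in the WT libraries. The groups do not overlap, but the gap between the nearest libraries is small beside their level. For BAX the log2 fold change was -0.15 ± 0.05 (SE, edgeR quasi-likelihood, adjusted p = 0.0271). In the authors' deposited table it is -0.16, with an adjusted p of 0.0446. This call was lost without knockout replicate 1 (adjusted p = 0.066), without knockout replicate 2 (0.0911), without WT replicate 3 (0.111), with upper-quartile factors (0.166), with cyclic loess (0.166) and with a stricter filter (0.0606), and the adjusted p ran from 0.0191 to 0.166 over 16 alternatives. BBC3 had 0.142, 0.109 and 0.124 counts per BAX count in the knockout-labelled libraries and 0.0461, 0.0560 and 0.0640 in the WT libraries. This is a 2.25-fold difference with no overlap (two-sided exact permutation p = 0.1, the smallest possible), for a ratio chosen after the values were seen.

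TP53INP1, a nuclear stress protein that takes part in p53-dependent cell death and in autophagy, had the largest rise and the fewest counts. It had 49, 75 and 51 counts in the knockout-labelled libraries, against 10, 14 and 28 counts in the WT libraries. As levels these were 2.51, 2.92 and 1.74 CPM in the knockout-labelled libraries and 0.379, 0.520 and 1.255 CPM in the WT libraries. WT replicate 3 lies well above the other WT libraries and nearest to the knockout-labelled ones. The log2 fold change of TP53INP1 was 1.76 ± 0.34 (SE, 95% interval 1.06 to 2.46, edgeR quasi-likelihood, adjusted p = 0.000124). Without WT replicate 3 it was 2.38 and without WT replicate 1 it was 1.45, so its size rests on single libraries, while the call held in each of the 15 alternatives that tested it. Counting error alone was 31.6% of the value at 10 counts. TP53INP1 is ENSG00000164938, chromosome 8, 94925972 to 94949411, minus strand, and its relative TP53INP2, which also acts in autophagy, was higher too, with 16.7 ± 1.23 CPM in the knockout-labelled libraries and 6.62 ± 1.38 CPM in the WT libraries (SD, n = 3 each, log2 fold change 1.32).

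ZMAT3, an RNA-binding zinc finger protein with a role in p53-mediated tumour suppression in mice, was higher in the knockout-labelled libraries. It had 10.8, 9.76 and 10.2 CPM there, against 6.53, 7.17 and 6.77 CPM in the WT libraries. The groups are well apart. For ZMAT3 the log2 fold change was 0.59 ± 0.11 (SE, edgeR quasi-likelihood, adjusted p = 8.2e-05). ZMAT3 is ENSG00000172667, chromosome 3, 179017223 to 179072279, minus strand.

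SESN1, a sestrin that restrains mTORC1 signalling and is induced by p53, did not pass the test. It had 6.45, 5.87 and 6.86 CPM in the knockout-labelled libraries, against 7.74, 7.06 and 6.18 CPM in the WT libraries. The ranges overlap (log2 fold change -0.13, 95% interval -0.39 to 0.13, edgeR quasi-likelihood, adjusted p = 0.404). SESN1 is ENSG00000080546, chromosome 6, 108986437 to 109094819, minus strand, and its antisense partner AL390208.1 had 6 counts in all. The other sestrins parted ways, with SESN2, which is also an ATF4 target, at 30.1 ± 2.20 CPM in the knockout-labelled libraries and 23.2 ± 1.13 CPM in the WT libraries (log2 fold change 0.38), and SESN3 at 8.88 ± 1.12 and 11.0 ± 1.16 CPM (-0.31, all SD, n = 3 each). The SESN3 ranges of the 2 groups overlap, although it was called lower (edgeR quasi-likelihood, adjusted p = 0.0264).

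GDF15, a secreted stress cytokine of the TGF-beta superfamily that also answers to ATF4, was higher in the knockout-labelled libraries. It had 14.8, 16.6 and 15.8 CPM there, against 9.75, 12.4 and 11.0 CPM in the WT libraries. The groups do not overlap. GDF15 thus had a log2 fold change of 0.51 ± 0.10 (SE, edgeR quasi-likelihood, adjusted p = 0.000125). GDF15 is ENSG00000130513, chromosome 19, 18374731 to 18389176, plus strand. Of 8 ATF4 stress genes, 2 were higher (ATF3, 0.76, and DDIT4, 0.73), 1 was lower (PPP1R15A, -0.51) and 5 were not called. That is 37.5% called, beside 52.6% of all genes.

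Per kilobase of exon, the 10 genes spanned a wide range of levels. In the knockout-labelled libraries the order was CDKN1A (20.7 ± 0.282 CPM per kb), BAX (18.8 ± 0.510), MDM2 (12.6 ± 0.228), GDF15 (7.54 ± 0.416), PLK3 (6.48 ± 0.00928, a spread below counting error), BBC3 (1.90 ± 0.273), BTG2 (1.81 ± 0.0861), SESN1 (1.249 ± 0.0970), ZMAT3 (1.06 ± 0.0536) and TP53INP1 (0.421 ± 0.105, all SD, n = 3). BBC3 and BTG2 overlapped there, and the other neighbours did not. In the WT libraries PLK3 (12.6 ± 0.339 CPM per kb) stood above MDM2 (9.52 ± 0.229), and BBC3 (0.937 ± 0.169) stood below SESN1 (1.37 ± 0.152). CDKN1A (20.8 ± 1.43) and BAX (20.8 ± 0.567) overlapped in the WT libraries and were the only neighbours that did so there. The length is that of all annotated exons together, so the level per length of a gene with many isoforms, such as MDM2, is understated.

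**Figure D3:**
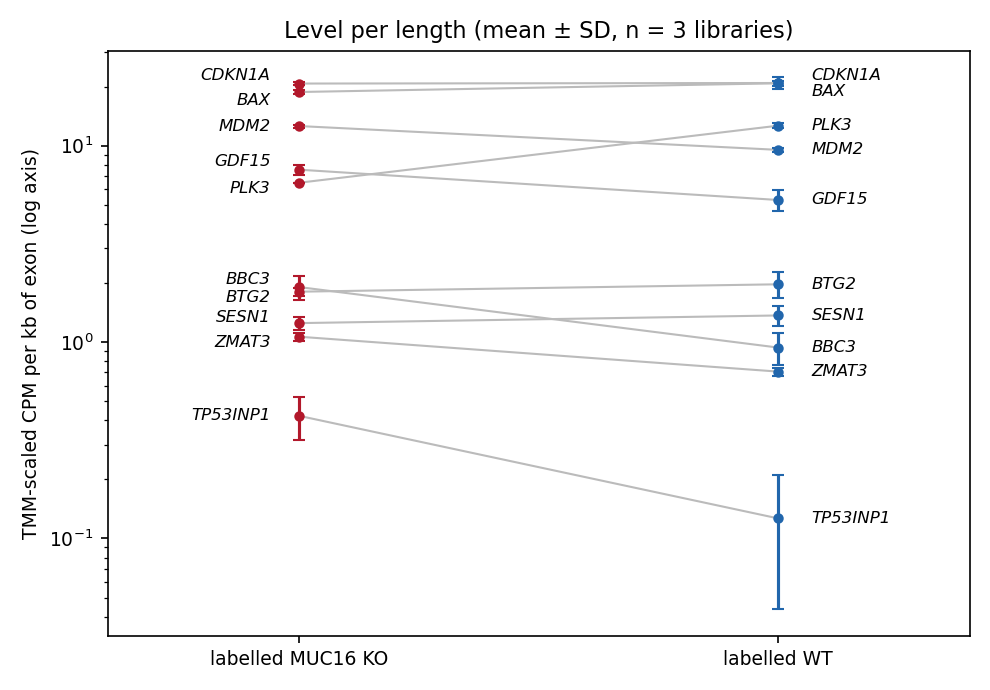
Mean level per kilobase of exon (log axis) of each p53 response gene in the knockout-labelled (left) and WT (right) libraries, with SD over 3 libraries and lines joining the same gene. PLK3 lies below MDM2 and GDF15 in the knockout-labelled libraries and above both in the WT libraries, and CDKN1A ranks highest in both.

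Genes that act on p53 were mostly lower in the knockout-labelled libraries. Of 19 family members and upstream regulators, all tested, 12 were lower and 1 higher, with a median log2 fold change of -0.23 beside 0.00 for all genes. In all, 68.4% were called, beside 52.6% of all genes, of which 25.9% were called lower. The changes were small, with a median absolute log2 fold change of 0.24 beside 0.28 for all genes tested. The deacetylase SIRT1 (-0.48), the acetyltransferase CREBBP (-0.41) and the damage kinase ATR (-0.33) were the lowest. CREBBP had 129.1 ± 12.8 CPM in the knockout-labelled libraries and 171.0 ± 6.27 CPM in the WT libraries (SD, n = 3 each). CDKN2A, whose alternative product ARF inhibits MDM2, was higher, with 104.7 ± 4.62 CPM in the knockout-labelled libraries and 69.3 ± 5.29 CPM in the WT libraries (log2 fold change 0.60, edgeR quasi-likelihood, adjusted p = 2.72e-09). A gene-level count of CDKN2A does not separate ARF from the CDK inhibitor p16, and 7.88% of its exon bases are shared with the antisense gene CDKN2B-AS1. The p53 relative TP63, at 154.9 CPM in the knockout-labelled libraries and 182.2 CPM in the WT libraries, was lower (-0.24), and MDM4, PPM1D and CHEK1 did not pass the test (-0.17, -0.03 and -0.08). TP63, MDM4, PPM1D and CHEK1 were named after their values were seen.

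Of 108 other genes listed as p53 targets from general knowledge, 103 were tested. Of the tested genes, 37 were higher, 26 lower and 40 not called, with a median log2 fold change of 0.07. That is 61.2% called, beside 52.6% of all genes. Whether p53 raises or lowers each listed gene was not checked, so the counts by direction do not measure p53 output. Among 9 arrest genes tested, 3 were higher and 4 lower, which is 77.8% called. Of those with a mean of at least 5 CPM, cyclin G2, CCNG2 (1.26), and the kinase PLK2 (0.36) were higher. PLK2 had 349.5 ± 7.66 CPM in the knockout-labelled libraries and 272.9 ± 4.78 CPM in the WT libraries (SD, n = 3 each). The other higher gene, with a lower mean, had the largest rise of this list (1.52). GTSE1 (-0.58), E2F7 (-0.47) and 14-3-3 sigma, SFN (-0.30), were lower. PLK2 and PLK3, both stress-responsive polo-like kinases, thus differed in direction, and the mitotic kinase PLK1 was lower (-0.74).

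Among 17 apoptosis targets tested, 6 were higher, 3 lower and 8 not called, so 52.9% were called, near the 52.6% of all genes. The BH3-only gene PMAIP1, which encodes NOXA, had 24.2 ± 0.593 CPM in the knockout-labelled libraries and 15.03 ± 1.02 CPM in the WT libraries (SD, n = 3 each, log2 fold change 0.69). CASP10 (0.91) and TP53I3 (0.39) were also higher. The nuclease gene AEN had 45.3 ± 1.45 CPM in the knockout-labelled libraries and 76.6 ± 3.93 CPM in the WT libraries (log2 fold change -0.76), and the death receptor TNFRSF10A (-0.34) and CASP1 (-0.17) were lower too. The 5 repair and damage tolerance genes called among 8 (62.5%) were MGMT (0.26), DDB2 (0.23), REV3L (-0.68), POLH (-0.36) and POLK (-0.22). Of 15 metabolism and autophagy genes, 4 were higher, among them FUCA1 (0.47), SESN2 and DRAM1 (0.34), 2 were lower, STEAP3 (-0.26) and GPX1 (-0.15), and 9 were not called, a share of 40% called that is below that of all genes.

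The remaining 54 tested catalogue targets were 22 higher and 14 lower, so 66.7% were called, beside 52.6% of all genes (26.7% higher and 25.9% lower). ORAI3 (log2 fold change 1.62), PGPEP1 (0.89) and NINJ1 (0.68) were the highest of those with a mean of at least 5 CPM, but 52.9% of the exon bases of ORAI3 are shared with AC135048.1, so its count is uncertain. Thrombospondin 1, THBS1, had the largest fall, with 245.0 ± 4.58 CPM in the knockout-labelled libraries and 805.5 ± 39.5 CPM in the WT libraries (SD, n = 3 each, -1.72). ENC1 (-0.99) and TGFA (-0.62), a ligand of the epidermal growth factor receptor, were also lower. THBS1 has other strong inputs, TGF-beta and YAP among them.

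**Figure D4:**
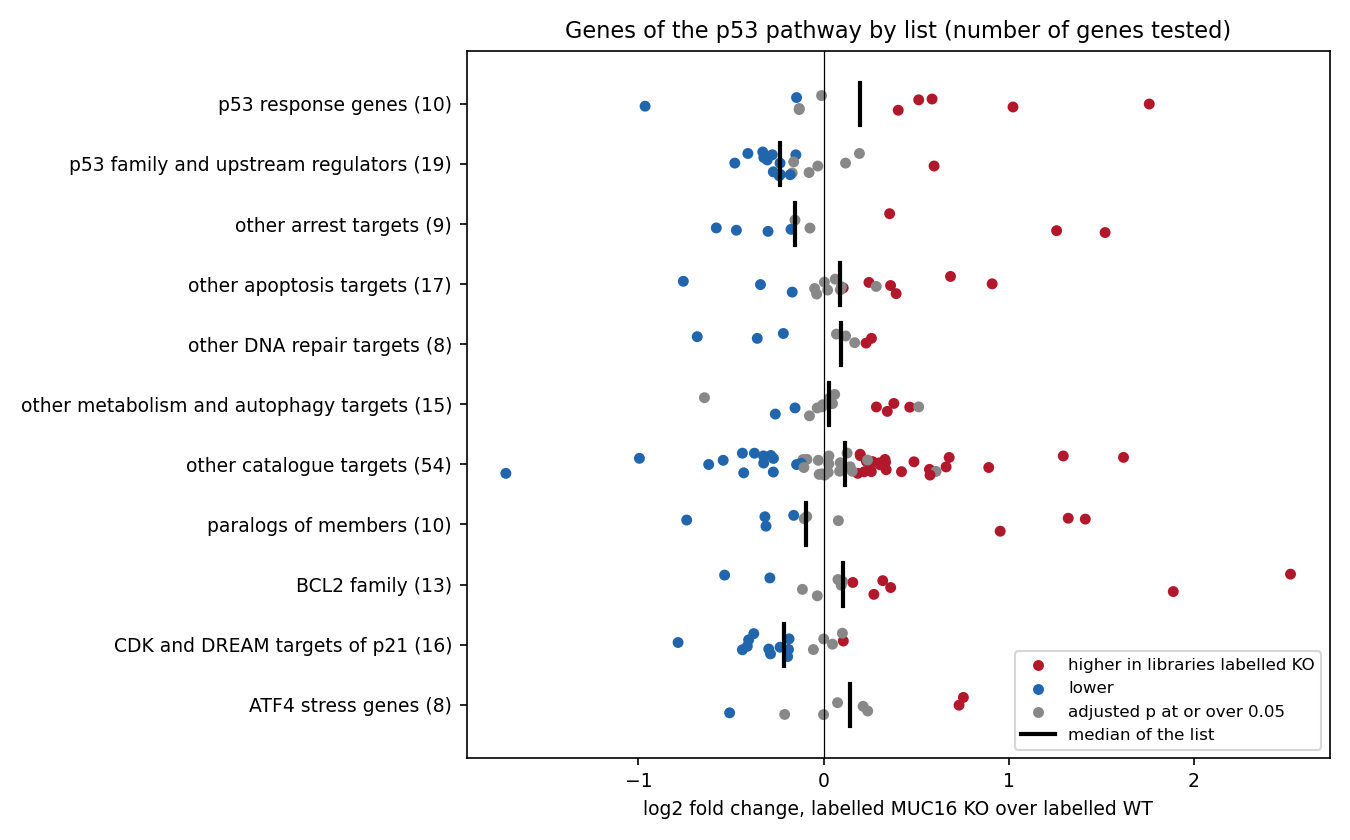
Log2 fold change (knockout-labelled over WT libraries) of every tested gene in each list (rows, with the number tested), coloured by call, with the list median as a bar. The p53 response genes run from -0.96 to 1.76. The medians are -0.23 for the upstream regulators and -0.21 for the list labelled CDK and DREAM targets of p21. That list also holds genes of the RB family and the DREAM complex.

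Paralogs of the 10 genes were 3 higher and 4 lower among 10 tested, so 70.0% were called, beside 52.6% of all genes. CDKN1C, the p57 relative of p21, had 10.9 ± 1.08 CPM in the knockout-labelled libraries and 4.14 ± 1.11 CPM in the WT libraries (SD, n = 3 each, log2 fold change 1.41). BTG1 had 68.7 ± 1.99 CPM in the knockout-labelled libraries and 35.5 ± 2.91 CPM in the WT libraries (0.95), where its relative BTG2 was not called. Of 13 BCL2 family genes tested, beside BAX and BBC3, 6 were higher and 2 lower, which is 61.5% called. Among those with a mean of at least 5 CPM, the BH3-only genes BCL2L11 (0.36), BIK (0.32) and BAD (0.27) were the highest. The survival gene MCL1 was lower, with 426.7 ± 6.52 CPM in the knockout-labelled libraries and 521.8 ± 13.4 CPM in the WT libraries (-0.29). The 2 genes higher by 2-fold or more and the other lower gene had lower means and are not named. Log2 fold changes in this family ran from -0.53 to 2.52. BAD shares 23.7% of its exon bases with GPR137. A list of 16 genes linked to p21 held CDKs, cyclins, targets of the DREAM repressor, and genes of the RB family and DREAM complex. Of this list, 11 were lower and 1 higher. That is 75.0% called, beside 52.6% of all genes, while 25.9% of all genes were called lower. CCNB1 (-0.79), CDC25C (-0.44) and CCNA2 (-0.41) were lowest and PCNA (0.11) was higher. Other named genes that share over 10% of their exon bases with another gene are DDIT4 (41.2%), ATR (16.4%), PLK1 (11.6%), STEAP3 (11.0%), BCL2L11 (10.9%) and BTG1 (10.4%), which limits how far their counts can be assigned.

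Across 16 alternative settings of scaling, filter, test and libraries, TP53INP1, BBC3, ZMAT3, GDF15, MDM2 and PLK3 kept their call wherever they were tested. BAX lost its call in 7 of them, and CDKN1A, BTG2 and SESN1 passed in 0. The plot of alternative settings gives each value.

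**Figure D5:**
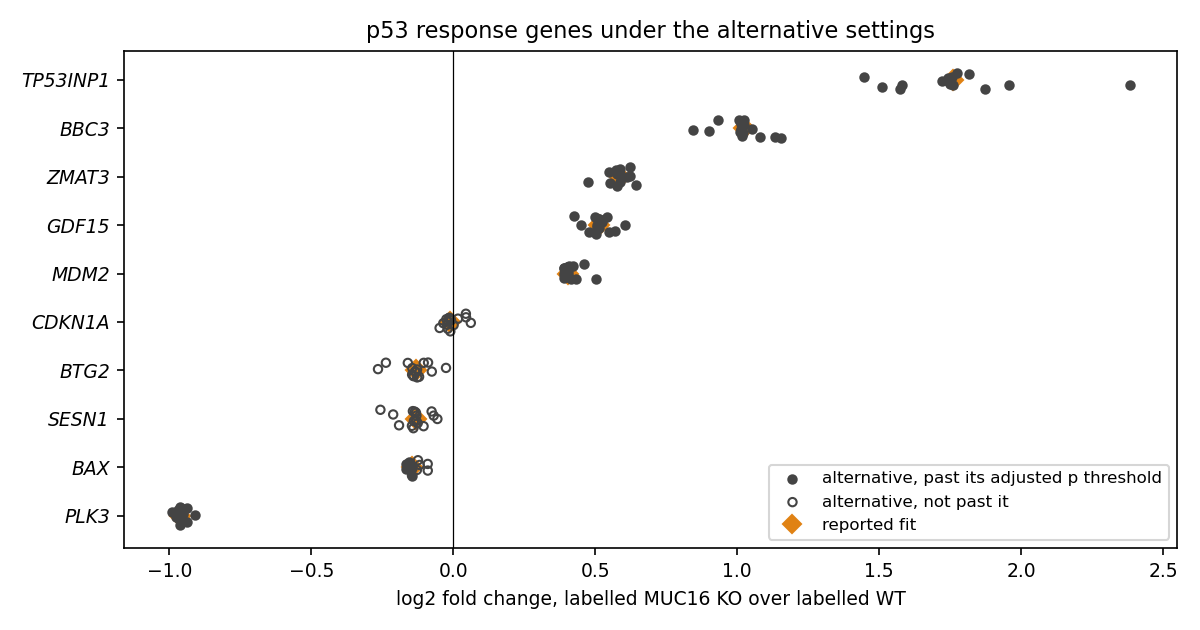
Log2 fold change of each p53 response gene (rows) in the reported fit (diamonds) and under each alternative setting (circles, filled where the gene passed that setting's adjusted p threshold). PLK3 stays between -0.99 and -0.91 and MDM2 between 0.39 and 0.50, while TP53INP1 runs from 1.45 to 2.38.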

How the data were processed

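The deposited count table, per the file headers, holds raw counts, 1 column per library. The submitters' processing notes name fastp, HISAT2, STAR, DESeq, GRCh38 and hg38, without roles or versions; the counting tool and its use of strand are not known, so reads of overlapping genes cannot be told apart. Log2 fold changes and p-values of the authors' deposited table are quoted by name, and 14 of its value columns were not used. Positions of the 10 genes equal GENCODE release 29.

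The test was glmQLFTest of edgeR 4.0.16 in R 4.3.3 (group only, TMM, filterByExpr with minimum count 10 and total 15). It was checked on simulated counts drawn from the kind of model that edgeR fits. That check covers the code and not how well the model describes these libraries. The p-values were adjusted over 16655 genes, and standard errors derive from the F statistic. The biological coefficient of variation was 0.0498. No pair of replicates was as close as sampling noise allows (chi-square per degree of freedom 2.41 to 6.21). Ratios were chosen after values were seen. The genes and lists were chosen with earlier results of these data known, the lists from general knowledge. A few genes are not reported here. Beyond the 10 genes and MUC16, up to 3 called genes per list and direction with a mean of at least 5 CPM are named. Alternatives were DESeq2 1.42.0, limma 3.58.1 (voom, or cyclic loess with trend), other factors and filters, the replicate block, leaving out each library or chromosome 5, and a threshold of 0.01.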

Additional observations from a re-analysis of the deposited data

How the results depend on the processing

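The calls of MDM2, GDF15, PLK3, ZMAT3 and BBC3 held in 16 of 16 alternatives, and that of TP53INP1 in the 15 that tested it, since the stricter filter (50 counts in 3 libraries) left it out. The number of p53 response genes called lower was 2. It was 1 with upper-quartile factors, cyclic loess, the stricter filter and an adjusted p threshold of 0.01. Leaving out 1 library, it ran from 1 to 2. Each fall to 1 came by the loss of BAX. Over all 16 alternatives, those that kept the call included, the log2 fold change of BAX ran from -0.17 to -0.09. CDKN1A passed in none of the 16, and its log2 fold change turned positive with upper-quartile factors (0.0447), cyclic loess (0.0615) and the stricter filter (0.0161), and ran from -0.0485 to 0.0441 leaving out 1 library. Other p53 targets called ran from 32 to 44 higher and 21 to 28 lower, and regulators called lower from 9 to 13. Regulators called higher were 1, and 2 with upper-quartile factors, cyclic loess and the stricter filter, and from 1 to 2 leaving out 1 library. The plot of alternative settings shows each gene. Same-numbered libraries did not deviate together (correlations 0.01, 0.02 and -0.02), which cannot show whether they were prepared together. The labels state no pairing. With the replicate block 8442 genes were called in place of 8759, and the calls of the 10 genes did not change. Counts of 10 to 28 in the WT libraries limit the precision of TP53INP1.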
